A study of Mus musculus with 7 samples.

Results

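Spp1, Trem2, Gpnmb, Fabp5, Apoe and Syngr1, 6 of the 33864 genes listed in single-cell count tables of mouse pancreas, were followed through every annotated cell class of 7 mice. They were put together with results of these same data known: Apoe, Syngr1, Gpnmb, Trem2 and Fabp5 are 5 of the 10 leading genes of the larger macrophage cluster of caerulein-treated mice, while Spp1 is a leading gene of the ductal cluster of wild-type mice and of no macrophage cluster. Their height in macrophages, and in that cluster above all, is therefore a description here and not a finding. The values chosen from include cells of the caerulein mice, so no difference that uses those mice, against wild type, against reprogrammed mice or between cell classes, is independent of the choice, and its p-value supports nothing. The earlier results were not limited to caerulein mice, so calls in reprogrammed mice are not independent of the choice either. In macrophages, Trem2, Gpnmb, Fabp5 and Syngr1 passed the test against wild type after caerulein, Gpnmb and Syngr1 passed it in reprogrammed mice, and Spp1 and Apoe passed in neither comparison. Outside macrophages Spp1, Apoe and Syngr1 were mostly ductal RNA and Fabp5 mostly endothelial RNA in wild-type pancreas, and Trem2 was found in mesothelial cells.

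Lipid-associated macrophages are macrophages that take up dying cells and lipoproteins in injured or fatty tissue and switch on a shared set of genes for lipid handling. Trem2 encodes a surface receptor for lipids, apolipoproteins and cell debris that signals through the adaptor encoded by Tyrobp. Apoe encodes the secreted apolipoprotein that carries cholesterol out of cells, Fabp5 a cytosolic protein that binds fatty acids and delivers them to nuclear receptors, and Gpnmb a lysosomal and surface glycoprotein. Spp1 encodes osteopontin, a secreted phosphoprotein that binds integrins and CD44 and is also a classical product of pancreatic duct cells, and Syngr1 encodes synaptogyrin, a membrane protein of synaptic-type vesicles.

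All 7 mice are labelled C57BL/6 and 2 months old, the i4F line having been made on the C57BL/6J.Ola.Hsd background, and the pancreas of each was read as a single 10x Genomics 3′ library, where each captured mRNA molecule is counted once by a unique molecular identifier (UMI). Doxycycline (1 mg/ml, 7 days) was given to the 2 WT mice as well as to the 3 i4F mice (genotype i4F-B). The i4F genotype combines the reverse tetracycline transactivator at the Rosa26 locus with the 4 reprogramming factors (Oct4, Sox2, Klf4, c-Myc) under doxycycline control in the Pparg gene, so that expression of the factors depends on where the transactivator and doxycycline act and 1 Pparg copy carries the insertion. The 2 caerulein mice were wild-type mice injected with caerulein, a cholecystokinin analogue that causes pancreatitis, at 100 µg/kg 7 times a day on 2 days, and their labels name no doxycycline. They thus differ from the WT mice in labelled doxycycline as well as in caerulein, and the 2 cannot be told apart.

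Cell numbers were 4327 and 6326 for WT, 9811, 8218 and 7614 for i4F and 15138 and 7039 for caerulein mice, and libraries held between 15469018 and 64784216 UMIs. Pairs of libraries shared 3 to 39 cell barcodes. i4F mouse 3 stood apart, with a median of 1248.5 UMIs per cell and 2.40% of its cells in the macrophage class, against 29.8% and 33.3% in the other i4F mice. The macrophage class held the clusters named macrophages in which no other cell type had more markers than macrophages among the 10 leading genes. It had 45 and 418 cells of WT, 2921, 2735 and 183 of i4F and 6989 and 2752 of caerulein mice. Clusters of that name with more dendritic cell or neutrophil markers were left out. An i4F cluster was left out with 1 dendritic cell and 0 macrophage markers among them. Yet 10 of the macrophage and 5 of the dendritic cell markers were enriched in that cluster. The smaller caerulein cluster was kept with 1 macrophage and 1 monocyte marker. All 12 macrophage markers, among them Adgre1, C1qa and Csf1r, were detected in this class in every mouse, with summed levels of 17205 to 24003 CPM (the UMIs of a gene per 1000000 UMIs of the summed cells). The sum of 8 monocyte markers was 15315 CPM in i4F mouse 2 and 1027 to 4712 in the other mice, and the sum of 8 neutrophil markers was 1741 CPM in i4F mouse 2. In i4F against WT, 2 of 8 monocyte and 1 of 5 tested ductal markers were called higher in this class. Of 5 tested dendritic cell markers 2 were called lower, as was 1 each of the neutrophil, stellate and endothelial markers. The neutrophil marker called lower was Csf3r, and the other 4 tested were not called. The median log2 fold change of the 5 tested neutrophil markers was 7.55 in i4F and 4.87 after caerulein. Beside these stand 0.05 and 0.04 over all genes. After caerulein 4 of 5 dendritic cell, 4 of 8 stellate and 3 of 8 endothelial markers were called lower. Over all genes 6.08% were called in i4F and 9.44% after caerulein. The part of these cells in the results was not tested.

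Spp1 lies on chromosome 5 from 104435118 to 104441050, Trem2 on chromosome 17 from 48346401 to 48354147, Gpnmb on chromosome 6 from 49036546 to 49070929, Fabp5 on chromosome 3 from 10012548 to 10016607 and Syngr1 on chromosome 15 from 80091334 to 80119501, all on the plus strand of GRCm38. Apoe lies on the minus strand of chromosome 7 from 19696109 to 19699188. All are protein-coding genes. RefSeq (GRCm38.p6) gave 8 start sites for 5 of the 6 members, 2 of them for Spp1 and 3 for Apoe. The 250 bases before the first start site of Spp1, Gpnmb and Syngr1, the members with the largest changes in macrophages, are shown in 5′ to 3′ direction, with a searched motif in capitals. They cover chr5:104434861-104435110, chr6:49036268-49036517 and chr15:80091084-80091333, all on the plus strand.
Spp1: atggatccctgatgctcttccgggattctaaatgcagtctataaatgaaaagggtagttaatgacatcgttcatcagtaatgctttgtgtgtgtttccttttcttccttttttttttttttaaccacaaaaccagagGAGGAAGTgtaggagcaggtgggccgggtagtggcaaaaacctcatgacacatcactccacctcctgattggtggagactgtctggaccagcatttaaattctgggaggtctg
Gpnmb: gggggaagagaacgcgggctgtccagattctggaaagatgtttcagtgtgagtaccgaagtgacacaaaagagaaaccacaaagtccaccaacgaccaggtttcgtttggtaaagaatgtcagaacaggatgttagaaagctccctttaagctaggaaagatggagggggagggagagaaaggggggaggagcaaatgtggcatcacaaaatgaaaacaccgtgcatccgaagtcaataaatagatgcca
Syngr1: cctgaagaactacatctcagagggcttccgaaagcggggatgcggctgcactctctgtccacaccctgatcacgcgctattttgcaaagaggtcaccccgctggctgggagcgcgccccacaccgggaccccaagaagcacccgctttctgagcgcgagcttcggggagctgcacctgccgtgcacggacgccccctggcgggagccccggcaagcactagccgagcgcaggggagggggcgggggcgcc
The letters TGACTCA (the AP-1 site), CACGTG (an E-box), CATGTG (the core of the M-box read by MITF) and GAGGAAGT (an ETS site of the PU.1 type) were searched on both strands. They occur in 4.46%, 6.02%, 12.3% and 2.44% of 32851 windows of this length. In the windows of the 8 start sites only GAGGAAGT was matched, in the first Spp1 window with its first base 113 bases before the start site, and the second Spp1 window, chr5:104435942-104436191, held none of the letters searched. A match of letters is a description of the window, and an unmatched motif says nothing about a factor.

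The first question was in which cells of the WT pancreas the genes were detected. Spp1 was highest in ductal cells, at 22758 and 19765.5 CPM, and next highest in mesothelium, at 1749 to 1772 CPM. In mesothelium a mean of only 9.79% of the cells held a Spp1 UMI. The ductal cells held 97.6% and 97.3% of all Spp1 UMIs of the WT mice, and the macrophages 0.4% and 0.2%. Ductal cells also held most of the WT UMIs of Apoe (81.0% and 53.3%) and of Syngr1 (90.8% and 80.1%). Endothelial cells held 70.6% and 69.8% of the WT Fabp5 UMIs, at 1004 and 1219 CPM, above the macrophages at 437 and 325 CPM with no overlap. Gpnmb lay mostly in stellate cells, with 83.9% and 86.2% of its WT UMIs, although its level there (17.6 and 23.9 CPM) lay within the range of the 2 macrophage values (42.7 and 9.94 CPM). Trem2 was the member with most of its WT UMIs in macrophages, 62.7% and 69.3%, and mesothelium held 31.4% and 25.2%.

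After caerulein most of the RNA of each member lay in macrophages. In caerulein mice macrophages held 86.9% and 88.8% of the Trem2 UMIs, 88.0% and 86.9% of Gpnmb, 79.9% and 80.3% of Fabp5, 88.8% and 89.9% of Apoe and 86.0% and 85.6% of Syngr1. For Spp1 the share was lower, at 61.4% and 55.5%, with 26.5% and 31.5% in ductal cells. In i4F mice 1, 2 and 3 the macrophages held 92.2%, 89.2% and 15.2% of Apoe, 88.2%, 72.3% and 45.5% of Gpnmb, 87.6%, 64.5% and 18.7% of Syngr1 and 80.4%, 73.3% and 40.0% of Trem2. For Spp1 the macrophage shares were 46.5%, 26.2% and 4.0%, and for Fabp5 46.2%, 28.03% and 17.2%. Stellate cells held 34.5%, 54.9% and 2.1% of the Spp1 UMIs and 35.2%, 42.9% and 7.4% of the Fabp5 UMIs of these mice, and in i4F mouse 3, which had few macrophages, ductal cells held 89.3% of Spp1. These shares follow the number of cells of each class and their RNA content as well as the level of each gene.

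**Figure D1:**
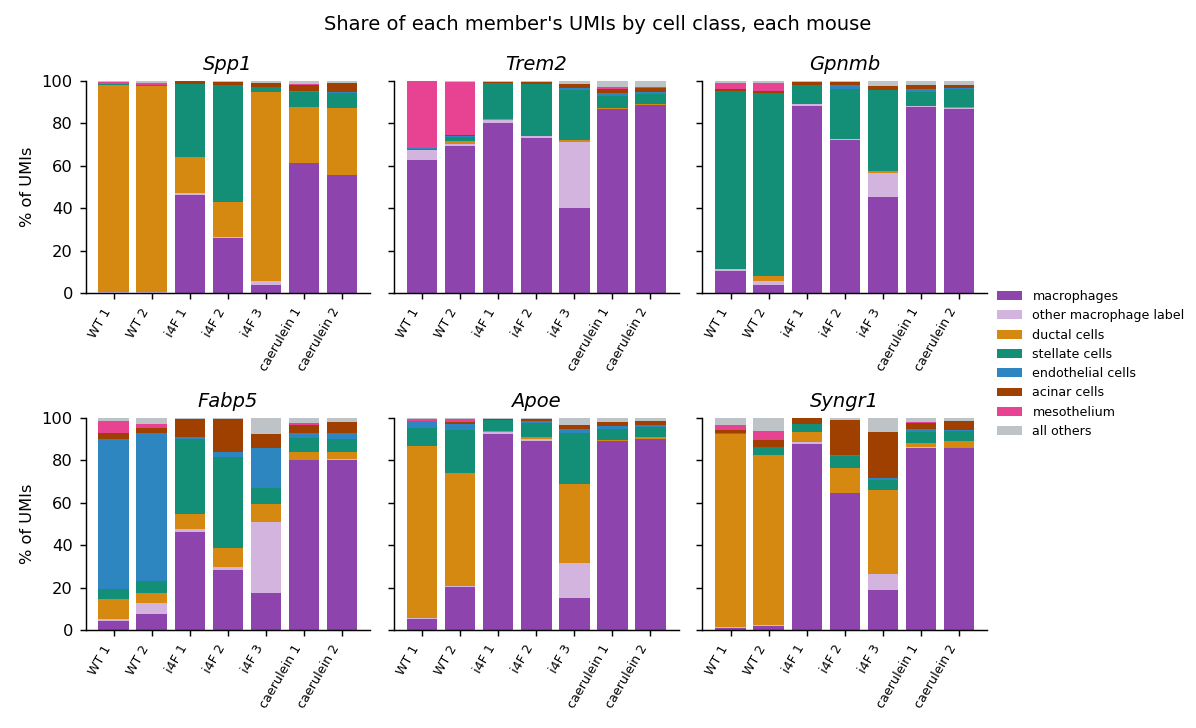
Share of each member's UMIs (y axis, percent of all UMIs of that gene in the mouse) that lay in each cell class, for every mouse (x axis). Ductal cells held 97.6% and 97.3% of the Spp1 UMIs of the WT mice, and macrophages held 61.4% and 55.5% of those of the caerulein mice.

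The second question was whether macrophages themselves changed, and it was asked on UMIs summed over the macrophages of each mouse. Beginning with the secreted proteins, Spp1 was at 1728 and 144 CPM in WT, 13790.1, 5612 and 2394 CPM in i4F and 6455 and 8011 CPM in caerulein mice. Every i4F and caerulein mouse lay above both WT mice, but the WT mice differed from each other by more than the highest and lowest i4F mouse did in ratio. The log2 fold change was 3.15 ± 1.00 (SE) in i4F against WT (n = 3 and 2, adjusted p = 0.0895) and 3.07 ± 1.04 in caerulein against WT (n = 2 and 2, adjusted p = 0.0917), so neither passed the threshold of 0.05 of edgeR's quasi-likelihood test with Benjamini-Hochberg adjustment over all genes. Without the 45 cells of WT mouse 1, Spp1 passed in both comparisons, at 5.86 and 5.78, and without i4F mouse 3 it passed in i4F against WT. Leaving out any 1 mouse gave 2.21 to 5.86 in i4F and 2.20 to 5.78 after caerulein. A higher sum can come from more cells of one state or from more RNA per cell, and the 2 cannot be told apart in summed cells.

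Apoe, the other secreted protein, was abundant in macrophages of every mouse. It was at 8268 and 18508 CPM in WT, 28317, 10712 and 15213 CPM in i4F and 19071 and 23609 CPM in caerulein mice. The WT and i4F values overlapped, and the caerulein mice lay just above WT mouse 2. The log2 fold changes were 0.58 ± 0.45 (SE, adjusted p = 0.460) in i4F and 0.77 ± 0.49 (adjusted p = 0.349) in caerulein mice against WT by edgeR. Without 1 mouse they ranged from 0.017 (without i4F mouse 1) to 1.29 (without WT mouse 2) and from 0.34 (without WT mouse 1) to 1.501 (without WT mouse 2).

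Of the surface proteins, Trem2 was at 455 and 278 CPM in WT macrophages, 712, 387 and 494 CPM in i4F and 1136 and 1223 CPM in caerulein macrophages. The WT and i4F mice overlapped, while both caerulein mice lay above all others. Trem2 rose after caerulein by a log2 fold change of 1.802 ± 0.36 (SE, edgeR adjusted p = 0.0167), and its value in i4F against WT was 0.69 ± 0.33 (adjusted p = 0.219), and 0.34 to 1.09 without 1 mouse. Gpnmb was at 42.7 and 9.94 CPM in WT, from 12 and 10 UMIs with exact 95% Poisson intervals of 22.1 to 74.5 and 4.77 to 18.3 CPM. It was at 133, 58.0 and 185 CPM in i4F and at 266 and 407 CPM in caerulein macrophages, so that the 3 groups did not overlap. It rose by 2.67 ± 0.65 in i4F (edgeR adjusted p = 0.0433) and by 4.11 ± 0.68 in caerulein mice (adjusted p = 0.0104). With WT mouse 2 left out the i4F value was 1.64, and it was 3.74 with WT mouse 1 left out.

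The cytosolic Fabp5 was at 437 and 325 CPM in WT, 997, 445 and 940 CPM in i4F and 2351 and 3348 CPM in caerulein macrophages. i4F mouse 2 lay close to WT mouse 1, and the caerulein mice lay above all others. Fabp5 rose after caerulein by 3.00 ± 0.40 (SE, edgeR adjusted p = 0.00712), and its value of 1.19 ± 0.36 in i4F did not pass (adjusted p = 0.0760). The vesicle protein gene Syngr1 was at 14.2 and 6.96 CPM in WT, from 4 and 7 UMIs with exact 95% Poisson intervals of 3.88 to 36.4 and 2.80 to 14.3 CPM. It was at 165, 37.7 and 88.4 CPM in i4F and at 400 and 482 CPM in caerulein macrophages, again without overlap of the groups. Syngr1 rose by 3.59 ± 0.74 in i4F (adjusted p = 0.0276) and by 5.71 ± 0.77 after caerulein (adjusted p = 0.00712).

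**Figure D2:**
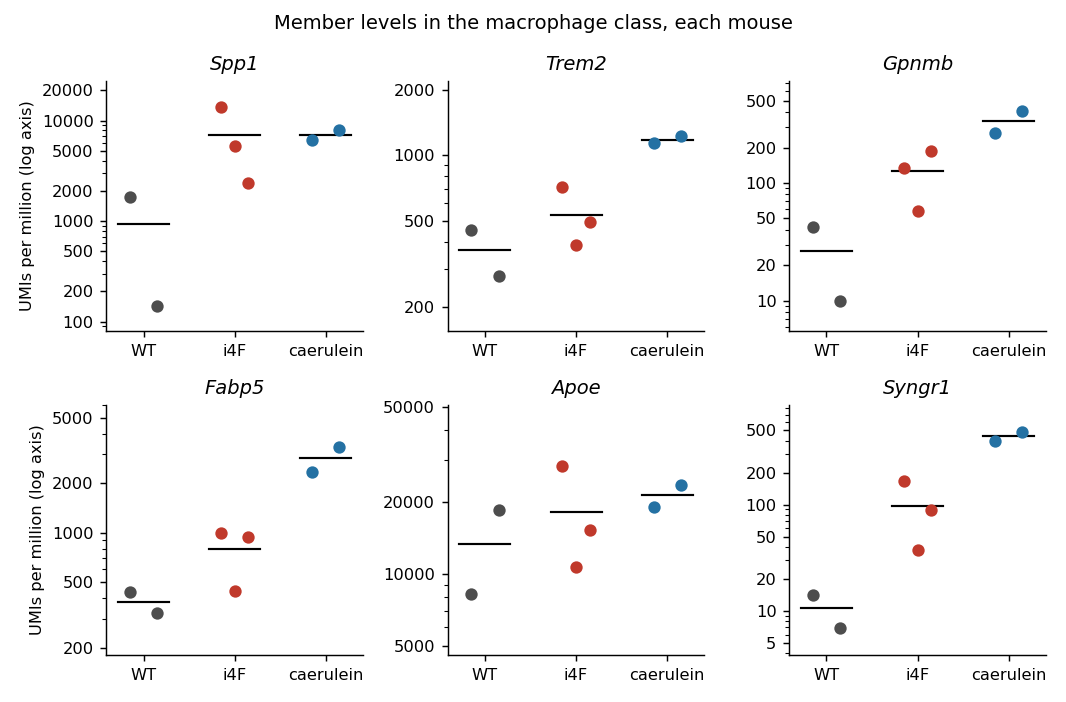
CPM of each member (y axis, log scale) in the summed macrophages of each of the 7 mice, by group (x axis), with 1 point per mouse and a line at the group mean. Gpnmb and Syngr1 form 3 separate ranges in the order WT, i4F, caerulein, whereas the Apoe values of WT and i4F mice, from 8268 to 28317 CPM, overlap.

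In all, 2 of 6 members rose in i4F macrophages, where 6.08% of the 12272 genes tested were called and 2.95% were called higher. After caerulein 4 of 6 rose, where 9.44% of the genes were called and 4.15% were called higher, and nothing is read from this second count, since the members were chosen with values of caerulein macrophages known. The i4F count is not an independent test either, since earlier results of these data were known when the members were chosen. Both i4F calls were lost with the 2 groups alone in the fit (50 of 7597 genes called), with all clusters named macrophages (1 of 12077) and with the series of library names as a term (0 of 12272). Only WT holds both series, so the series term is set by the difference between the 2 WT mice alone, and nothing is read from it. The member counts also rest on few mice and on the WT mice in particular. In every class, leaving out 1 WT or caerulein mouse leaves 1 mouse in that group, and the calls over all genes can fall with it. A call lost in such a fit is therefore not read as a result about a member. Without WT mouse 2 no member was called in either comparison, with 8 and 62 genes called in all and 1837 and 1964 genes at an unadjusted p under 0.05. Without WT mouse 1, Spp1 and Gpnmb were called in i4F, and all members but Apoe after caerulein. Leaving out caerulein mouse 1 left Fabp5 and Syngr1 called after caerulein and none in i4F, and leaving out caerulein mouse 2 left Syngr1 in both. Without i4F mouse 1 no member was called in i4F against WT, without i4F mouse 2 only Syngr1 was, and without i4F mouse 3 Spp1, Gpnmb and Syngr1 were. The WT comparisons share their control mice, so they are not independent of each other.

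The same sums were compared between i4F and caerulein macrophages, which sets reprogramming beside injury. These groups also differ in labelled doxycycline, in treatment schedule and in the series of library names. None of these can be told apart from reprogramming or injury. Trem2, Gpnmb, Fabp5, Apoe and Syngr1 were chosen as leading genes of the larger caerulein cluster, so these values are a description. The log2 fold change of i4F against caerulein was -1.81 ± 0.33 (SE) for Fabp5, -2.12 ± 0.48 for Syngr1, -1.11 ± 0.31 for Trem2 and -1.44 ± 0.47 for Gpnmb, with every i4F mouse below both caerulein mice. Spp1 was at 0.08 ± 0.87 (edgeR adjusted p = 0.975) and Apoe at -0.19 ± 0.44, and the i4F mice lay on both sides of the caerulein mice for Spp1. Fabp5 and Syngr1 passed the threshold, 2 of 6 members, where 6.98% of the genes were called and 2.1% were called lower, and nothing is read from this count. Without either caerulein mouse no member was called, with 2 and 3 genes called in all and 1629 and 1495 genes at an unadjusted p under 0.05. Fabp5 alone was called without i4F mouse 2 or 3, Trem2 was called in addition without WT mouse 2, and Trem2 and Gpnmb without WT mouse 1.

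Detection per cell was compared after each macrophage was thinned to 1000 UMIs, which leaves out shallower cells and keeps 44 and 365 cells of WT, 2645, 2532 and 131 of i4F and 6509 and 2362 of caerulein mice. A Spp1 UMI was then present in 6.82% and 5.21% of WT, 87.1%, 67.4% and 22.1% of i4F and 76.9% and 83.2% of caerulein macrophages. Before thinning, the mean share was 18.7% in WT, 62.1% in i4F and 83.5% in caerulein mice. The thinned share for Gpnmb was 2.27% and 0.274% in WT, 9.53%, 4.07% and 5.34% in i4F and 15.9% and 24.4% in caerulein mice. At least 4 of the 6 members were found together in 2.27% and 0.822% of WT, 24.7%, 6.79% and 9.92% of i4F and 43.1% and 54.0% of caerulein macrophages. i4F mouse 3 had the lowest share of Spp1-positive macrophages of its group and not the lowest share of cells with 4 members.

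Free RNA in the droplets sets a floor to such shares, read here in the cells of clusters named B lymphocytes thinned in the same way. In WT mice 0% and 2.86% of these cells held a Spp1 UMI and 0% and 0% a Trem2 UMI, where macrophages held Trem2 in 31.8% and 20.3%. In i4F mice 1.18% to 21.5% of these cells held Spp1 and up to 2.96% held Trem2, against 24.7% to 44.2% of i4F macrophages with Trem2. In caerulein mice the cluster of that name held Trem2 in 14.8% and 22.3% and at least 4 members in 4.52% and 7.02% of its cells. Its leading genes were H2-Aa, H2-Eb1, H2-Ab1, Cd74, Ighm, H2-DMb1, Napsa, Plbd1, H2-DMa and Ccl5, of which Ighm is a B cell marker, and 4 dendritic cell markers were enriched in it. Whether free RNA or other cells gave its shares was not tested. The macrophage shares of Trem2, 60.6% and 66.7%, were above it.

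Within a mouse, the macrophages with a Gpnmb UMI also held the other members more often, as a description across cells of one library at 1000 UMIs. In caerulein mouse 1, Fabp5 was present in 81.3% of 1037 macrophages with Gpnmb and in 49.5% of 5472 without it, and in caerulein mouse 2 in 84.2% and 53.9%. In i4F mice 1 and 2 the values were 69.8% against 30.5% and 36.9% against 15.5%. Syngr1 showed the same order, at 49.3% against 19.6% and 49.7% against 23.8% in the caerulein mice and at 27.4% against 10.4% and 14.6% against 1.93% in i4F mice 1 and 2. Only 1 macrophage of each WT mouse and 7 of i4F mouse 3 held a Gpnmb UMI at this depth, too few to give a share.

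The caerulein macrophages formed 2 clusters, and the members helped to define them, so their levels are given without a test. Syngr1 was at 586 and 560.1 CPM in the cluster led by Apoe and Syngr1 and at 73.7 and 141 CPM in the cluster led by Ccl4, Ccl6 and Mrc1. Gpnmb was at 387 and 479 CPM in the first and at 55.2 and 96.2 CPM in the second, and Apoe at 25750.4 and 26456 CPM and at 7367 and 11175 CPM. Trem2 was the least divided, at 1402 and 1331 CPM against 669 and 748 CPM. All 6 members were higher in the first cluster in both mice. The second cluster was still above both WT mice in Trem2, Gpnmb, Fabp5, Spp1 and Syngr1, and below WT mouse 2 in Apoe.

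The partners of the members were read in macrophages from lists of their pathways. Over all genes tested, 2.95% were called higher in i4F and 4.15% after caerulein, and 6.08% and 9.44% in both directions. The lists were chosen with earlier results of these data known, and Ctsd, a listed gene, is a leading gene of the larger caerulein macrophage cluster. Calls of listed genes are therefore a description in every comparison. Of 13 genes of TREM2 signalling, Tyrobp rose after caerulein (log2 fold change 1.00 ± 0.25 SE, edgeR adjusted p = 0.0372) and was at 0.73 ± 0.23 in i4F (adjusted p = 0.0924). Cd33, an inhibitory receptor of the sialic acid-binding family, fell by 3.14 ± 0.46 after caerulein (adjusted p = 0.0082), from 114 and 83.5 CPM in WT to 8.73 and 11.9 CPM, and stayed at 64.4, 135 and 57.6 CPM in i4F. Trem3, another gene of the TREM receptor family, had 0 UMIs in both WT mice and 16.9 to 28.8 CPM in the others, and passed the filter on low counts only through these other groups. The other 12 genes of the list in i4F and the other 10 after caerulein were not called. The median of the list was 0.83 in i4F and 0.54 after caerulein, beside 0.05 and 0.04 over all genes.

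Of the 7 osteopontin receptors, 6 were tested and none was called by edgeR in i4F, after caerulein or between the 2. Cd44, the hyaluronan receptor that also binds osteopontin, was at 341 and 164 CPM in WT and at 576, 676 and 382 CPM in i4F macrophages, without overlap, with a log2 fold change of 1.30 ± 0.38 (adjusted p = 0.0711).

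Of 12 apolipoproteins and lipoprotein receptors 9 were tested, and 2 were called higher in each comparison, where 2.95% (i4F) and 4.15% (caerulein) of all genes were called higher. These were the scavenger receptor Msr1 (2.29 ± 0.42 in i4F and 1.62 ± 0.43 after caerulein), the oxidised lipoprotein receptor Olr1 in i4F (2.86 ± 0.73) and the endocytic receptor Lrp1 after caerulein (1.26 ± 0.35). Of 13 genes of cholesterol efflux and lipid storage, 2 rose in both comparisons: Soat1, which esterifies cholesterol (1.13 ± 0.25 and 1.28 ± 0.27), and Plin2, which coats lipid droplets (1.46 ± 0.35 and 2.19 ± 0.38). Plin2 was at 373 and 430 CPM in WT, 1436, 767 and 786 CPM in i4F and 1346 and 2107 CPM in caerulein macrophages.

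Of 6 fatty acid-binding protein and PPAR genes 5 were tested. For this list and the next, 6.08% of all genes were called in i4F and 9.44% after caerulein, in both directions. Pparg was called lower in i4F (-4.64 ± 0.62, adjusted p = 0.00914), at 17.8 and 13.9 CPM in WT and 0.606, 0.271 and 2.06 CPM (6, 2 and 1 UMIs) in i4F, and its log2 fold change after caerulein was -1.70 ± 0.50 (adjusted p = 0.0629). The i4F cassette lies in 1 copy of this gene, and the part of the insertion in this value cannot be told apart from that of reprogramming. Of 16 further genes of lipid-associated macrophages, the galectin Lgals1, the lysosomal proteases Ctsd and Ctsl and the actin-capping Capg rose in both comparisons. Ctsb, another lysosomal protease, rose after caerulein (1.65 ± 0.32) and was at 0.69 ± 0.29 in i4F, and the difference between i4F and caerulein macrophages did not pass (-0.96 ± 0.28, adjusted p = 0.0709). Ctsd, an aspartic protease of lysosomes, was at 1750 and 1344 CPM in WT, 5142, 2802 and 2902 CPM in i4F and 9115 and 11695 CPM in caerulein macrophages. Axl, a receptor for dying cells, fell in both (-2.44 ± 0.55 and -4.41 ± 0.62), and Csf1, a growth factor of macrophages, fell after caerulein (-1.65 ± 0.43, adjusted p = 0.0417). Of 9 genes of resident macrophages, Timd4, a phosphatidylserine receptor, fell in both, and Lyve1 and Cd163 fell after caerulein. Of 4 MITF and TFE factor genes, Tfeb fell in i4F (-1.18 ± 0.30) and none was called after caerulein.

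The third question was what happened to the genes outside macrophages. In ductal cells Spp1 was at 22758 and 19765.5 CPM in WT, 34153.5, 32856.5 and 12473 CPM in i4F and 24521 and 28740.1 CPM in caerulein mice, and its log2 fold changes of 0.50 ± 0.42 and 0.49 ± 0.46 were not called. Fabp5 was at 47.0 and 45.9 CPM in WT ductal cells, 1019, 1285 and 105 CPM in i4F and 976 and 960 CPM after caerulein. It rose after caerulein by 4.55 ± 0.99 (SE, edgeR adjusted p = 0.0473), and in i4F its value was 4.29 ± 0.95 (adjusted p = 0.190), with i4F mouse 3 near WT. Apoe was at 5988 and 11577 CPM in WT ductal cells, 1206, 1120 and 8714 CPM in i4F and 1197 and 1679 CPM after caerulein, where its log2 fold change was -2.46 ± 0.95 (adjusted p = 0.128). In all, 2 of 6 members were called after caerulein in ductal cells, Fabp5 and Trem2, where 3.53% of genes were called and 2.88% were called higher. Trem2 had 0 and 4 UMIs in WT and 154 and 37 UMIs in caerulein ductal cells, so that it entered the test through the groups where it was high and its call is no support. In i4F against WT no member was called, where 0.00861% of genes were called by edgeR and 2016 of 11619 had an unadjusted p under 0.05, while DESeq2 called 2 members and 373 genes. Without i4F mouse 3, Spp1, Trem2, Fabp5 and Apoe were called in i4F, where 2966 of 11197 genes were called, and all members but Spp1 after caerulein, where 3601 were called. Without i4F mouse 1, Gpnmb was called in addition after caerulein, and no member was called there without any 1 of the other 5 mice.

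Stellate cells are the fibroblast-like cells of the pancreas, and Spp1 reached its highest level in them in reprogramming. It was at 85.0 and 18.3 CPM in WT, 2334, 3738 and 151 CPM in i4F and 571 and 709 CPM in caerulein stellate cells. All i4F mice lay above WT, and i4F mouse 3 lay closer to WT than to the other i4F mice. Spp1 rose in i4F by 5.52 ± 1.41 (SE, edgeR adjusted p = 0.0388), and after caerulein its value was 3.83 ± 1.33 (adjusted p = 0.0830). Fabp5 rose from 26.2 and 27.5 CPM in WT to 174, 217 and 49.0 CPM in i4F (2.59 ± 0.58, adjusted p = 0.0301) and to 157 and 175 CPM after caerulein (2.77 ± 0.61, adjusted p = 0.0310). Gpnmb, which is a stellate gene in WT by its share of UMIs, was at 17.6 and 23.9 CPM in WT, 3.09, 6.00 and 18.8 CPM in i4F and 15.5 and 26.0 CPM after caerulein, and was not called. In stellate cells 3 of 6 members were called in i4F (Spp1, Trem2, Fabp5), where 20.6% of genes were called and 12% were called higher, and 3 of 6 after caerulein (Trem2, Fabp5, Syngr1), where 17.1% were called and 9.99% were called higher. Trem2 had 1 and 8 UMIs in WT stellate cells and 1472, 939 and 144 UMIs in those of i4F mice, and Syngr1 had 0 and 13 in WT, so both entered the test mainly through the groups where they were high. Their calls here, and those of Trem2 with a mouse left out, are no support. In caerulein stellate cells Trem2 was at 57.1 and 43.4 CPM, and at 10.7 and 5.67 CPM with cells holding C1qa, C1qb or C1qc UMIs left out. That split was chosen after the data had been seen. The class did not hold the same clusters in each group. In WT it included a cluster led by Acta2, Tagln, Myh11 and Rgs5, genes of smooth muscle, which is a separate label in the other groups, and in i4F a cluster whose leading genes include Upk3b and Msln, genes of mesothelium, which is a separate label in the other groups. Without the first cluster the same members were called, and 2861 of 14583 genes in i4F and 2232 after caerulein. Without the second, Gpnmb was called lower in addition in i4F, where 7094 of 14704 genes were called, and Spp1 higher in addition after caerulein, where 5724 were called. Both settings were added after the data had been seen. Without any 1 of WT mouse 1, WT mouse 2, caerulein mouse 1 or caerulein mouse 2, Trem2 alone was called in both comparisons, and without i4F mouse 1 or 2 it alone was called in i4F. Without i4F mouse 3, all members but Syngr1 were called in i4F, where 7672 of 16058 genes were called, and Spp1 in addition after caerulein, where 6378 were called.

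In endothelial cells, where Fabp5 is a gene of fatty acid transport across capillaries, Fabp5 was at 1004 and 1219 CPM in WT, 424, 501 and 660 CPM in i4F and 1296 and 1936 CPM after caerulein. All i4F mice lay below both WT mice and both caerulein mice above them, and neither difference was called (-0.99 ± 0.29 SE, adjusted p = 0.139, and 0.61 ± 0.32, adjusted p = 0.329, by edgeR). Apoe and Spp1 rose in caerulein against WT, where 4.11% of genes were called and 3.54% were called higher. The summed macrophage markers were higher in these cells as well, and their part in both values was not tested. Apoe was at 615 and 1111 CPM in WT and 5203 and 4364 CPM in caerulein endothelial cells (2.55 ± 0.38, adjusted p = 0.00750), and Spp1 at 138 and 29.2 CPM and at 1110 and 1181 CPM (3.91 ± 0.75, adjusted p = 0.0226). Trem2 had 1 and 3 UMIs in WT and 342 and 62 in caerulein endothelial cells, Gpnmb had 0 and 0 and 82 and 13, and Syngr1 had 2 and 0 and 131 and 20. These 3 members also passed the threshold, but they passed the filter on low counts only through the groups where they were high, so their calls are no support. Without caerulein mouse 1, Trem2 alone was called, without WT mouse 2 or caerulein mouse 2 the call of Spp1 was lost, and without WT mouse 1 that of Gpnmb. In i4F against WT no member was called in endothelial cells, where 0.81% of genes were called by edgeR and 1486 of 8153 had an unadjusted p under 0.05, while DESeq2 called 2 members and 292 genes. Without i4F mouse 3, Spp1, Trem2, Gpnmb and Fabp5 were called, and 1223 of 8560 genes.

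Macrophage markers were read in the same cells. The 12 macrophage markers summed to 103 and 89.4 CPM in WT endothelial cells and to 4589 and 2590.0 CPM in those of caerulein mice. In stellate cells the sum was 27.5 and 48.5 CPM in WT, 308, 283 and 182 CPM in i4F and 896 and 568 CPM in caerulein mice, and in ductal cells 469 and 335 CPM, 1975, 1507 and 647 CPM, and 1745 and 1583 CPM. The sum was thus higher in every i4F and caerulein mouse than in WT in stellate and ductal cells, whereas Apoe of ductal cells and Gpnmb of i4F stellate cells were not. In caerulein mice Trem2 had 59.3 and 71.1 UMIs per 1000 UMIs of the macrophage markers in macrophages, 62.5 and 76.0 in endothelial cells and 63.7 and 76.5 in stellate cells. In i4F mice the ratio was 29.7, 21.7 and 24.2 in macrophages and 110, 143 and 196 in stellate cells. For Spp1 the ratio in i4F mice was 575, 315 and 117 in macrophages and 7575, 13191 and 829 in stellate cells. For i4F stellate cells both ratios stood above that of the macrophages of the same mouse in all 3 mice. In caerulein mice the Trem2 ratio of endothelial and stellate cells was close to that of macrophages. It was lower in caerulein ductal cells, where Trem2 was at 45.5 to 62.1 CPM beside the marker sums of 1745 and 1583 CPM. A ratio to macrophage markers does not cover free RNA of ductal cells, where Spp1 was high in every group. The source of these RNAs was not tested. The Spp1 ratio of stellate cells stood above that of macrophages in the other groups too, at 637 and 1249 against 337 and 466 in caerulein mice and at 3088 and 377 against 74.0 and 6.83 in WT. In endothelial cells of caerulein mice Spp1, at 1110 and 1181 CPM beside marker sums of 4589 and 2590.0 CPM, was not above the macrophage ratio.

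**Figure D3:**
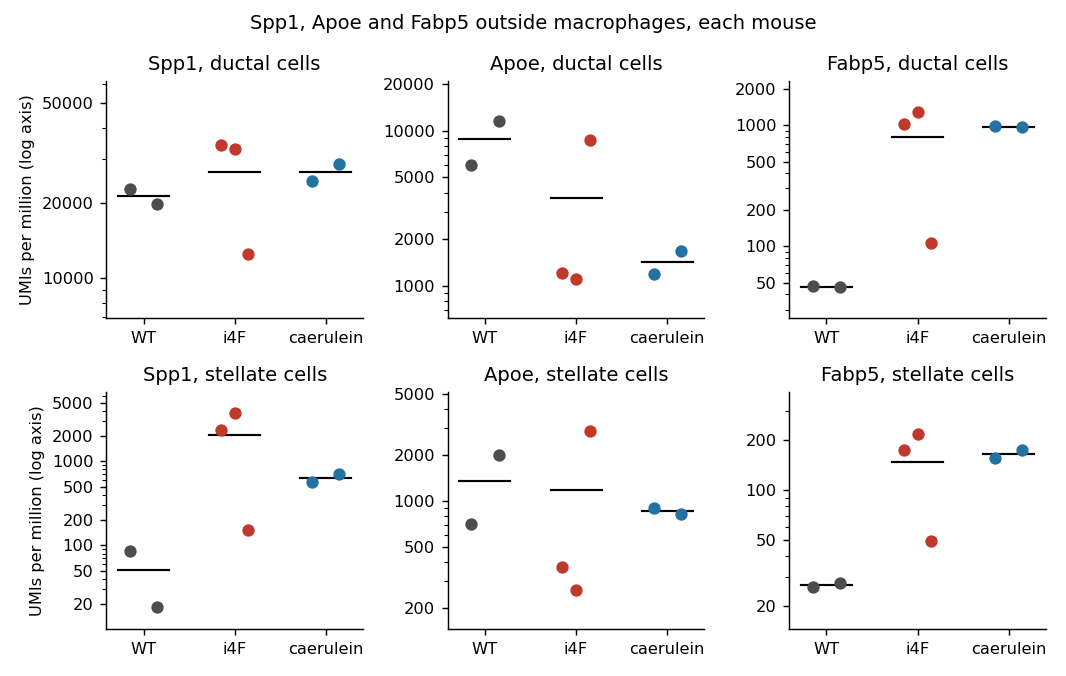
CPM (y axis, log scale) of Spp1, Apoe and Fabp5 in ductal cells (upper row) and stellate cells (lower row), with 1 point per mouse, the groups on the x axis and a line at each group mean. Spp1 in stellate cells of i4F mice spans 151 to 3738 CPM, all above the WT mice, and Fabp5 in ductal cells of i4F mouse 3, at 105 CPM, lies near WT.

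In i4F mice 1 and 2 most of the Trem2 RNA of stellate cells, 857 of 1472 and 744 of 939 UMIs, lay in a cluster of 144 of 4393 and 126 of 2681 cells. In i4F mouse 3 it held 132 of 144 UMIs but also 1167 of the 1280 stellate cells. This cluster, named as activated stellate cells by its label, was led by Clec3b, C3, Gsn, Slpi, Rarres2, Dcn, Dmkn, Ccl11, Upk3b and Msln, the last 2 of which mark mesothelium, the lining of the organ surface. Trem2 was at 1073 CPM in its 144 cells of i4F mouse 1, 1357 CPM in its 126 cells of i4F mouse 2 and 43.6 CPM in its 1167 cells of i4F mouse 3. In the other activated stellate cluster of the same mice it was at 14.5, 8.63 and 11.9 CPM, from 615, 195 and 12 UMIs.

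When the cells of that cluster were divided by UMIs of Msln, Upk3b or Lgals7, a division chosen after these values were seen, the 107, 73 and 107 cells with such UMIs held Trem2 at 1169, 1657 and 379 CPM. The cells without them held 181, 77.02 and 6.60 CPM. Tyrobp, which macrophages express beside Trem2 at 2684 to 2924 CPM in the same mice, was at 15.3, 22.5 and 6.66 CPM in the cells with mesothelial UMIs. With cells that held a C1qa, C1qb or C1qc UMI left out as well, Trem2 was at 1267, 1810 and 399 CPM. In the clusters labelled mesothelium, Trem2 was at 100 and 199 CPM in 100 and 94 cells of the WT mice, with 0 Tyrobp UMIs in both, and at 124 and 264 CPM in 243 and 36 cells of the caerulein mice, with Tyrobp at 111 and 6.77 CPM. With cells that held a C1q UMI left out, the caerulein values were 75.1 and 227 CPM for Trem2 and 22.8 and 7.84 CPM for Tyrobp. In the other activated stellate cluster of the i4F mice, 1145 of 4249, 558 of 2555 and 18 of 113 cells held UMIs of Msln, Upk3b or Lgals7. Trem2 was at 12.5, 8.67 and 36.1 CPM in these cells and at 15.4, 8.61 and 3.94 CPM in those without. The values of i4F mouse 3 there came from 9 and 3 UMIs.

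**Figure D4:**
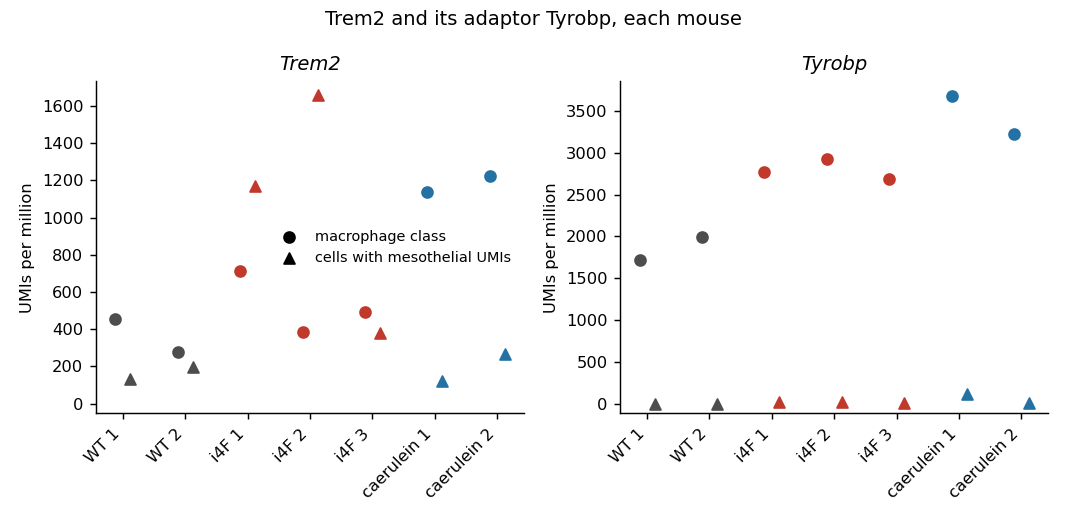
CPM (y axis, linear) of Trem2 (left) and of Tyrobp (right) in each mouse (x axis), in macrophages (circles) and in cells with UMIs of Msln, Upk3b or Lgals7 (triangles) of the cluster led by Clec3b in i4F mice and of mesothelium in the others. The triangles of i4F mice 1 and 2 lie above their macrophages in Trem2, at 1169 and 1657 CPM. In Tyrobp the triangles lie at 0 to 22.5 CPM, except that of caerulein mouse 1 at 111 CPM.

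The change of a member was also compared between macrophages and another class of the same mice, in a fit with the mouse as a block and on members with more than 3 UMIs in every mouse of both classes. Trem2 did not meet this rule against any other class, and its differences were negative. Spp1 and Syngr1 changed more in macrophages than in ductal cells, in i4F by 3.31 ± 0.70 and 3.40 ± 0.66 (SE, edgeR adjusted p = 0.0298 and 0.0194), where 1.88% of genes were called. Gpnmb differed between macrophages and stellate cells by 4.26 ± 0.83 in i4F (adjusted p = 0.0170), where 3.3% of genes were called. Against endothelial cells, Fabp5 differed by 2.12 ± 0.38 in i4F (adjusted p = 0.00907), where 2.8% of genes were called. None of these 4 calls was lost without i4F mouse 3, where 8.52% to 12.7% of genes were called. After caerulein the same differences are a description, since the members were chosen with these values known and all but Spp1 are leading genes of caerulein macrophages. They were 3.48 ± 0.76 for Spp1, 4.95 ± 0.67 for Syngr1 and 3.32 ± 0.79 for Apoe against ductal cells, where 4.99% of genes were called, 4.22 ± 0.86 for Gpnmb against stellate cells, where 4.2% were called, and 2.42 ± 0.41 for Fabp5 against endothelial cells, where 8.14% were called. This comparison was added after the data had been seen.

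**Figure D5:**
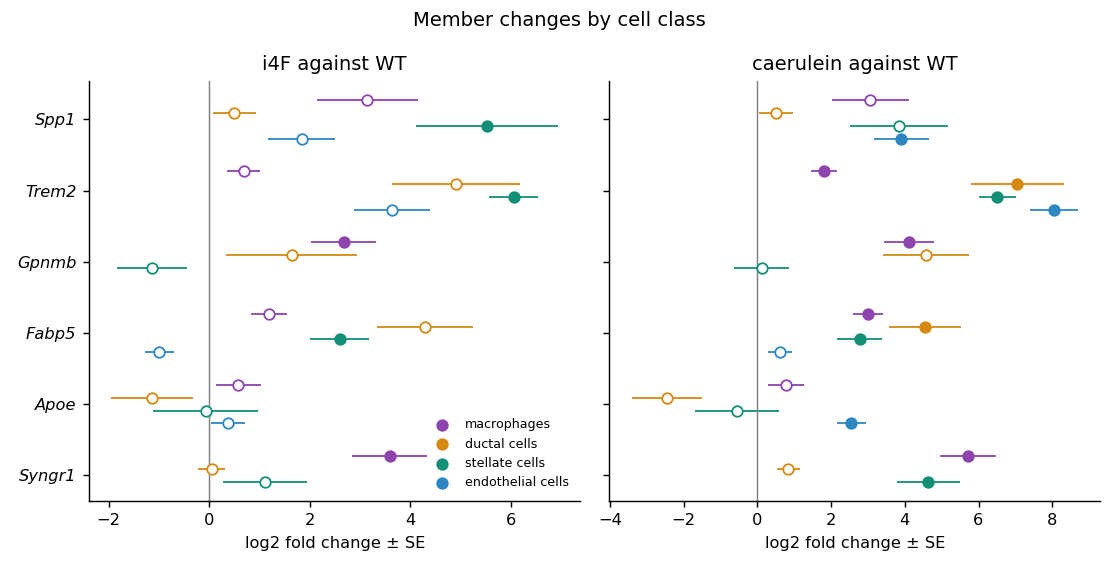
Log2 fold change against WT (x axis) of each member (y axis) in macrophages, ductal, stellate and endothelial cells, for i4F (left) and caerulein mice (right), with bars for 1 SE. Filled points passed the threshold and open points did not, points where a compared group held 3 UMIs or fewer are left out, and Syngr1 lies near 0 in ductal cells of i4F mice (0.05) but at 3.59 in their macrophages.

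Summed over all cells of the pancreas, 4 of 6 members rose after caerulein, where 9.08% of genes were called and 5.15% were called higher: Trem2 from 12.1 and 19.6 to 441 and 413 CPM (5.13 ± 0.71 SE, edgeR adjusted p = 0.0308), Gpnmb by 4.03 ± 0.49, Fabp5 by 2.92 ± 0.40 and Syngr1 by 3.51 ± 0.51. Spp1 was not called, at 8216 and 4123 CPM in WT and 3548 and 4331 CPM after caerulein. Without i4F mouse 2 these calls were all lost, where 0 of 17852 genes were called, so the loss is not particular to the members. They were also lost without any 1 of the WT or caerulein mice, which leaves 1 mouse in a group. Apoe joined them without i4F mouse 3, where 8909 of 19180 genes were called. In i4F against WT no member was called, where 0% of 18340 genes were called by edgeR, with 6383 genes at an unadjusted p under 0.05 and 2 members and 4351 genes called by DESeq2. Without i4F mouse 3, Trem2, Gpnmb and Fabp5 were called, and 9543 of 19180 genes. Beside these sums stands the share of macrophages, which was 1.04% and 6.61% of cells in WT, 29.8%, 33.3% and 2.40% in i4F and 46.2% and 39.1% in caerulein mice, and its part in the sums was not tested. In all cells of the i4F mice Apoe was at 5021, 2343 and 3149 CPM.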

How the data were processed

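The authors aligned 10x Genomics 3′ reads to GRCm38 (mm10) with Cell Ranger (version not given in the sources used here), used Seurat and SoupX, and removed cells with few genes or much mitochondrial RNA. Deposited values are raw whole-number UMI counts, 1 column a cell, and it is not stated if they precede the SoupX correction. The deposited cell metadata include the percentage of mitochondrial UMIs, computed by the authors in Seurat. Ambient RNA can therefore add to low values. Clusters and their names are the authors'. Genes missing from a table were set to 0 there.

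UMIs were summed per mouse and class and tested with edgeR 4.0.16 (two-sided quasi-likelihood test, TMM, filterByExpr, a fit of 3 groups of 2, 3 and 2 mice), with Benjamini-Hochberg adjustment over all genes and a threshold of 0.05. Alternatives were DESeq2 1.42.0, RLE, no TMM, no filter, only the compared groups, a term for the replicate number, a term for the series of library names (AL: WT mouse 1 and the i4F mice, AM: the others), only cells of at least 500 genes, possible doublets (cells with UMIs of at least 2 markers of another class) left out, other definitions of macrophages, and each mouse left out. The genes named are the members, their direct partners and the listed genes past the threshold in macrophages, of which 1 is not reported here. Genes most alike were found by Pearson correlation of log2(CPM + 10). Scripts were tested on simulated data. Python 3.11.15 and R 4.3.3 were used. The members and lists were chosen with earlier results of these data known. The labels give each mouse its own number, and p-values measure the spread between these mice. Intervals cover counting error only.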

Additional observations from a re-analysis of the deposited data

Results flagged for a closer look

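In 11 cases the change of a member differed between macrophages and another class of the same mice, by a test of the difference itself (edgeR, mouse as a block, added after the data had been seen). Only members with more than 3 UMIs in every mouse of both classes were counted. This left out Trem2, which had 3 UMIs or fewer in a WT mouse of each other class. Its differences were all negative. Those past the threshold were -5.20 and -3.07 against stellate and endothelial cells in i4F. After caerulein they were -5.24, -4.49 and -6.27 against ductal, stellate and endothelial cells, and these calls are no support. Of the 11 cases, the 6 after caerulein are a description, since the members were chosen with these values known and all but Spp1 are leading genes of caerulein macrophages. Over all genes the test called 1.88%, 3.3% and 2.8% in i4F against ductal, stellate and endothelial cells, and 4.99%, 4.2% and 8.14% after caerulein. The differences of log2 fold changes, macrophages minus ductal cells, were 3.31 for Spp1 and 3.40 for Syngr1 in i4F against WT, and 3.48 for Spp1, 3.32 for Apoe and 4.95 for Syngr1 in caerulein against WT. Macrophages minus stellate cells gave 4.26 for Gpnmb in i4F and 4.22 after caerulein. Macrophages minus endothelial cells gave 1.58 for Spp1 in i4F (adjusted p = 0.0386), 2.12 for Fabp5 in i4F, 2.42 for Fabp5 after caerulein and -1.72 for Apoe after caerulein, the last with a larger change in endothelial cells.

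Beside the last value stands the sum of the macrophage markers in endothelial cells, 103 and 89.4 CPM in WT and 4589 and 2590.0 CPM in caerulein mice. Its part in the Apoe value was not tested.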

How the results depend on the processing

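WT macrophages were few, 45 and 418 cells, so that Gpnmb and Syngr1 rest there on 12 and 10 and on 4 and 7 UMIs. WT mouse 1 and the i4F mice share 1 series of library names and the other mice another, and the term for it takes a degree of freedom from a small fit. Since only WT holds both series, the term is set by the difference between the 2 WT mice alone. With it, i4F is in effect set against WT mouse 1 and caerulein against WT mouse 2, so calls lost with it say nothing about the members. Of the fold changes of members under other settings, 523 kept their side of the threshold, 108 lost it, 36 gained it and 6 turned direction. Outside macrophages only members called in the main fit, and Apoe in ductal cells, were counted. Gains there by the other members are therefore not in these numbers. The number of members called follows, with the number of genes called in brackets. In macrophages of i4F against WT it was 2 (746 of 12272), and 0 with the 2 groups alone (50 of 7597), with all clusters named macrophages (1 of 12077) and with the series term (0), 1 without TMM (757) and in cells with C1q UMIs (214 of 11792), and 4 without the filter (1701 of 24806) and without possible doublets (1081 of 11671). In i4F against caerulein it was 2 (857), and 0 with all clusters named macrophages (202) and with the series term (0), and 4 without the filter (1766). After caerulein against WT it stayed within 1.5 times of 4 under every setting but the left-out mice. In ductal cells it was 2 after caerulein (410 of 11619), and 5 with the 2 groups alone (3426 of 12040), 0 with the series term (0) and 4 without the filter (2526 of 24109), and in i4F it was 0 (1), and 2 by DESeq2 (373) and 3 without the filter (1311). In endothelial cells of i4F mice it was 0 (66 of 8153), and 2 by DESeq2 (292), 1 in cells with at least 500 genes (89), 1 without TMM (110) and 4 without the filter (882 of 21111). In stellate cells it was 3 in both comparisons, and 1 with the series term in i4F and after caerulein (16 and 7 of 14818) and 1 with the 2 groups alone in i4F (110 of 14526). In all cells it was 4 after caerulein (1666 of 18340) and 0 with the series term (0), and 0 in i4F (0), and 2 by DESeq2 (4351), 1 without TMM (2405) and 1 without the filter (2076 of 33681). The cause of these changes was not tested.

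Without TMM the median log2 fold change of all genes moved from 0.05 to -0.11 in i4F macrophages and from 0.04 to -0.34 in all cells of i4F mice. The split of genes called higher and lower went from 362 and 384 to 287 and 470 in i4F macrophages, from 509 and 650 to 417 and 702 in caerulein macrophages, and from 0 and 0 to 456 and 1949 in all cells of i4F mice. Spp1 in macrophages of i4F against caerulein mice, 0.08 as reported, turned to -0.089 with all clusters named macrophages, -3.50 with the series term, -0.0072 without caerulein mouse 1 and -0.78 without i4F mouse 1 (range without 1 mouse -0.78 to 0.52), and Apoe, -0.19 as reported, to 0.97 with the series term and 0.088 without i4F mouse 2 (range without 1 mouse -0.68 to 0.088). Every i4F library is of the AL series and every caerulein library of the AM series. The series term therefore only adds the gap between the WT mice to this comparison.

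Same-numbered mice did not deviate together (correlations of -0.19 to 0.06 in macrophages). In a group of 2 mice the deviations mirror each other, so these values cannot decide whether replicate numbers pair the mice. Number 3 belongs to i4F mouse 3 alone. A replicate block, also with the caerulein numbers crossed, therefore fits that mouse exactly and takes it out of the comparisons, much as leaving it out does. With the replicate block 5 members were called in ductal cells after caerulein and 3 in i4F (2735 and 2232 of 11619 genes), 3 in endothelial cells of i4F mice (809 of 8153), 5 in stellate cells of i4F mice (6506 of 14818) and 3 in all cells of i4F mice (8138 of 18340). With the caerulein numbers crossed, a setting added after seeing the data, the replicate block gave 4 in macrophages of i4F against caerulein, 5 and 4 in ductal cells after caerulein and in i4F, and 4, 5 and 3 in endothelial, stellate and all cells of i4F mice (1268, 7445 and 9289 genes). Fits without 1 WT or caerulein mouse leave 1 mouse in that group. The genes called over all genes also varied widely with the mouse left out, so nothing about the members is read from the counts that follow. Leaving out 1 mouse at a time gave 0 to 5 members called in macrophages after caerulein, 0 to 3 in i4F and 0 to 4 between the 2, 0 to 5 and 0 to 4 in ductal cells after caerulein and in i4F, 1 to 5 and 0 to 4 in endothelial cells, 1 to 4 and 1 to 5 in stellate cells, and 0 to 5 and 0 to 3 in all cells.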

Other observations

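Other classes of caerulein mice also held the members. In the cluster named B lymphocytes Trem2 was at 281 to 317 CPM and Apoe at 2625 to 3180.45 CPM in caerulein mice, and in WT B lymphocytes Trem2 had 0 UMIs and Apoe was at 176 to 486 CPM. In acinar cells Spp1 was at 1115 and 1243 CPM after caerulein and at 165 and 116 CPM in WT, and Fabp5 at 408 to 429 CPM and 119 to 126 CPM. In smooth muscle Fabp5 was at 449 to 526 CPM after caerulein and at 56.6 to 119 CPM in i4F mice. The macrophage markers in acinar cells summed to 1477 and 842 CPM after caerulein and to 28.7 and 94.2 CPM in WT, and Trem2 stood at 61.5 and 60.3 UMIs per 1000 of their UMIs in caerulein mice, beside 59.3 and 71.1 in macrophages.

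Over 92 sums of a mouse and an annotated cluster and 8877 genes, the genes most like each member were named by Pearson correlation of log2(CPM + 10), as a description, since the sums share libraries. Trem2 was most like Lgals3 (0.86), Lgmn (0.83) and Ctsb (0.83), and Gpnmb most like Ctsb (0.83), Ms4a7 (0.78) and Cbr2 (0.78). Apoe was most like Grn (0.75), Adgre1 (0.73) and C1qc (0.73). Fabp5 was most like Atox1 (0.80), Plin2 (0.71) and Gng5 (0.71), Syngr1 like Ctsd (0.74), Nme4 (0.73) and Cstb (0.73), and Spp1 like Frrs1 (0.72), Syngr1 (0.71) and Vill (0.69). The rank correlation shared 0 or 1 of these 3 genes per member.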
